A study of Mus musculus with 5 samples.

Results

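The genes described here are 9 transcription factors that mark or maintain epithelial identity, namely the grainyhead-like factors Grhl1 and Grhl2, the zinc finger factors Ovol1 and Ovol2, the Ets factors Elf3, Ehf and Elf5, the Krüppel-like factor Klf5 and the p53 relative Trp63. They were chosen by name, as the probe set annotated with that 1 gene symbol. All 9 were measured, each by 1 probe set, among 19938 genes on the array. RNA came from 5 mouse pancreatic cell cultures grown in serum for fewer than 6 passages, and each was hybridised to 1 Affymetrix whole-transcript array. The normal ductal group (2 cultures) had the genotype Pdx-1Cre p53L/L, a Cre transgene under the Pdx-1 promoter of the pancreatic lineage with a pair of floxed p53 alleles. The PDAC group (3 cultures of pancreatic ductal adenocarcinoma cells) had the genotype Pdx-1Cre APCL/+ p53L/L, which adds 1 floxed allele of Apc. Cre and the floxed p53 alleles were thus common to both groups, except that the title of normal ductal replicate 2 gives Pdx-1 without Cre. That title also calls the cells normal pancreatic without the word ductal, while the source and cell type labels of the same culture say ductal. PDAC replicate 3 is titled a mutant cell, unlike the other PDAC cultures. The sources used here give neither the age of the animals nor whether cultures came from separate animals, so p-values measure only the spread between these cultures.

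Grainyhead-like proteins bind DNA at the enhancers of junction genes and help to keep them open and active in epithelia. Ovol proteins are repressors that hold down Zeb1 and other drivers of the mesenchymal state, and Zeb and Snail proteins in turn repress epithelial genes through E-box sequences. Elf3, Ehf and Elf5 form the epithelium-specific branch of the Ets family, Klf5 supports the growth of gut and duct epithelium, and Trp63 encodes p63, the master factor of basal and squamous epithelium.

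The factors differed in how far their signal was lower in the PDAC arrays. Grhl2, Ehf and Elf3, 3 of the 9, were lower by more than 2 on the log2 scale, a size reached downwards by 1.46% of all genes. The other 6 lay within 0.6 of 0, as did 85.3% of all genes. No member had an adjusted p under 0.05 by limma over all genes (0 of 9), against 0.0552% of all genes called. At an unadjusted p under 0.05 limma gave 5 of 9 lower and 0 higher, where 6.86% of all genes were lower. All 3 PDAC values lay below both normal ductal values for 6 of 9, where 12.8% of all genes did so. The median log2 difference was -0.46 over the 9 and 0.01 over all genes. Leaving out a normal ductal array leaves 1 in that group, so the spread then comes from the PDAC arrays alone and the lone array is assumed to vary as they do. The count of 5 became 3 without normal ductal replicate 1, without PDAC replicate 1 or without PDAC replicate 2. In cultures that may hold several kinds of cell, fewer cells expressing a factor and less RNA per cell cannot be told apart.

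**Figure D1:**
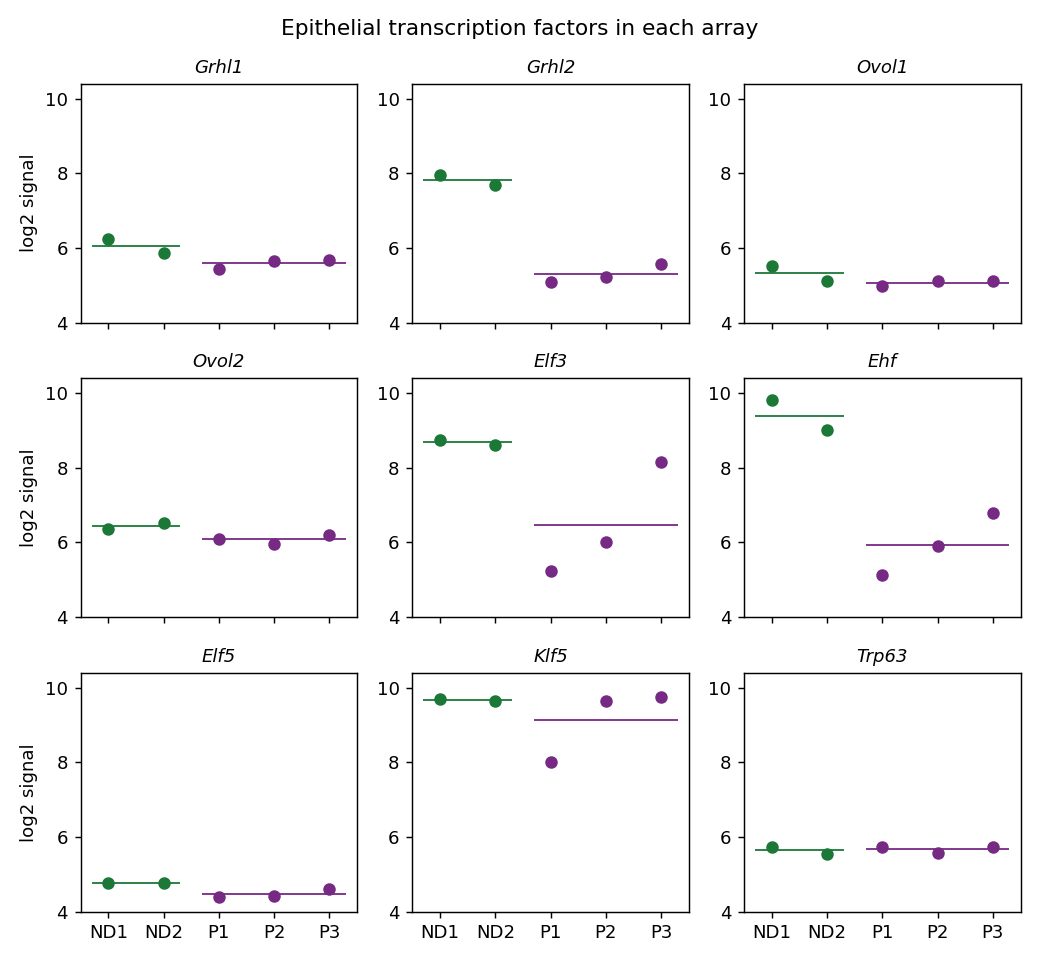
Log2 signal (vertical axis, same scale in every panel) of the 9 factors in normal ductal replicates 1 and 2 (ND1, ND2, green) and PDAC replicates 1, 2 and 3 (P1 to P3, purple), with 1 point per array and a line at the group mean. Grhl2 and Ehf are low in all 3 PDAC arrays, Elf3 is low in P1 and P2 but at 8.15 in P3, and Klf5 is low in P1 only.

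Among the grainyhead-like factors, Grhl2, which activates E-cadherin and claudin genes in many epithelia, had a log2 signal of 7.96 and 7.68 in normal ductal replicates 1 and 2. It stood at 5.09, 5.21 and 5.58 in PDAC replicates 1, 2 and 3. The groups were far apart, with a gap of 2.10 between the lowest normal ductal and the highest PDAC value. The PDAC arrays lay within 0.49 of each other, with an SD above the median of 0.14 over all genes. The group mean was 7.82 ± 0.20 (SD, n = 2) against 5.29 ± 0.26 (SD, n = 3), a signal 5.77-fold higher in normal ductal cultures. The log2 difference was -2.53 (SE 0.20, 95% confidence interval -3.08 to -1.98, adjusted p = 0.119 by limma). This fold, like that of Ehf, is a ratio of deposited signals, and since the background level is not known here, neither is whether the PDAC signals lay above it. Grhl2 ranked as number 36 of all genes by p and as number 160 by the size of the fall. With arrays rescaled, the adjusted p of Grhl2 by limma was 0.0386 after quantile normalization and 0.0238 with a common array median. Of 13 alternatives these 2 alone called Grhl2. Its adjusted p was 0.354, 0.352 and 0.137 without PDAC replicates 1, 2 and 3.

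Grhl1, its paralogue best known from skin, had 6.23 and 5.87 in the normal ductal arrays and 5.44, 5.65 and 5.68 in the PDAC arrays. The groups did not overlap, but the gap between them was 0.19, smaller than the 0.35 by which the normal ductal arrays differed. Grhl1 differed by -0.46 on the log2 scale (SE 0.15, adjusted p = 0.340). Grhl3, the third member of the family and not among the 9, had 6.09 and 5.82 in the normal ductal arrays and 5.63, 5.77 and 6.97 in the PDAC arrays, so its highest value was in PDAC replicate 3.

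The profiles most like that of Grhl2 were those of Marveld3, a tight junction protein, Mctp2, a calcium-binding membrane protein, and Camsap3, which anchors microtubule minus ends in epithelial cells. Likeness was the root mean square distance between profiles centred over the 5 arrays, which was 0.05 for Marveld3, 0.11 for Mctp2 and 0.12 for Camsap3. Marveld3 had 8.09 and 7.68 in the normal ductal arrays and 5.17, 5.25 and 5.71 in the PDAC arrays. Its log2 difference of -2.51 (SE 0.24, adjusted p = 0.140) was close to that of Grhl2, which follows from the search for like profiles. Without normal ductal replicate 1 or 2 the search found 1 of these 3 genes again, and without PDAC replicate 2 or 3 it found 2. The search covered all genes, and the 5 arrays are shared by every profile.

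Among the Ets factors, Ehf, which is expressed in glandular and ductal epithelia, showed the largest difference of the 9. Its log2 signal was 9.81 and 9.00 in the normal ductal arrays and 5.14, 5.90 and 6.79 in the PDAC arrays. All PDAC arrays were low, with a gap of 2.21 between the groups, and replicate 3 lay 1.65 above replicate 1. The mean was 9.40 ± 0.57 (SD, n = 2) against 5.94 ± 0.82 (SD, n = 3), a signal 11-fold higher in normal ductal cultures. The log2 difference was -3.46 (SE 0.60, 95% confidence interval -5.15 to -1.77, adjusted p = 0.196 by limma), and as a fall it ranked as number 56 of all genes.

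Elf3, which is induced in inflamed and differentiating epithelium, had 8.75 and 8.62 in normal ductal cultures and divided the PDAC cultures. It stood at 5.24 in PDAC replicate 1, 6.00 in replicate 2 and 8.15 in replicate 3, so replicate 3 lay only 0.47 below the lower normal ductal array. The SD over the PDAC arrays was 1.51, where the median SD over all genes was 0.14 and 95% of genes lay under 0.75. The log2 difference was -2.22 (SE 0.99, 95% confidence interval -4.99 to 0.55, adjusted p = 0.476), and without PDAC replicate 3 it was -3.07 (adjusted p = 0.187).

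Elf5, a factor of mammary and other secretory epithelia, had 4.78 and 4.76 in the normal ductal arrays and 4.40, 4.43 and 4.60 in the PDAC arrays. The groups did not overlap, though the gap was only 0.16. Elf5 differed by -0.29 on the log2 scale (SE 0.07, adjusted p = 0.278).

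Ehf and Elf5 are neighbours in the genome. In the GRCm38 assembly Ehf lies on chromosome 2 from 103263431 to 103303275 and Elf5 from 103412098 to 103450989, 109 kb apart. Within 250 kb of the pair, 4 other protein-coding genes were measured. Abtb2, on the far side of Elf5, was also lower in the PDAC arrays, with 9.56 and 8.90 against 7.62, 7.85 and 7.95 and a log2 difference of -1.42 (SE 0.25, adjusted p = 0.198). Apip, an enzyme of methionine salvage on the far side of Ehf, was higher, with 7.75 and 7.55 against 8.20, 7.92 and 8.28 (log2 difference 0.48, SE 0.15, adjusted p = 0.336). Pdhx, a subunit of the pyruvate dehydrogenase complex, had a log2 difference of 0.16 (SE 0.10), and Cat, which encodes catalase, had 0.02 (SE 0.33). Of these 4 neighbours, Abtb2 was thus the 1 whose PDAC values all lay below both normal ductal values. The neighbouring genes were named after their values were seen.

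The profile of Ehf was most like those of Endod1 (distance 0.15), Lamb3, the beta chain of the basement membrane protein laminin 332 (0.19), and Serinc2 (0.19). Lamb3 had 10.27 and 9.40 in the normal ductal arrays and 5.82, 6.32 and 6.88 in the PDAC arrays, the same order of arrays as Ehf. The profile of Elf3 was most like those of Frmd4b (0.16), Serpinb5, the epithelial serpin maspin (0.18), and Stap2, a signalling adaptor (0.20). Serpinb5 stood at 6.10 in PDAC replicate 3 and at 3.29 and 4.12 in replicates 1 and 2, against 7.22 and 6.82 in normal ductal cultures. The order that Lamb3 shared with Ehf follows from the search for like profiles. So does the high replicate 3 value that Frmd4b, Serpinb5 and Stap2 shared with Elf3. The neighbours in profile depended on the arrays used: without PDAC replicate 1 the search found 0 of the 3 genes named for Ehf again, and without PDAC replicate 3 or normal ductal replicate 2 it found 0 of the 3 named for Elf3.

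The promoters of the Ets factors are shown because Zeb and Snail proteins are known to act through the E2-box CACCTG and because some of these repressors had higher values in the PDAC arrays. Windows of 250 bases before an annotated start were read from the RefSeq promoter table (GRCm38.p6), which matched 4 members, namely Grhl1, Ovol2, Elf3 and Elf5. Grhl2, Ovol1, Ehf, Klf5 and Trp63 had no entry. Both strands were searched for CACCTG, the grainyhead site AACCGGTT and its looser form AACNNGTT (which contains the strict one), the Ets site GGAAGT, the Ovo site CCGTTA and the CACCC box CCACCC. Capitals mark matches to CACCTG and, in Elf3 near the start, to the CACCC box on the opposite strand. The Elf3 window is chr1:135258473-135258722 on the minus strand, and the Elf5 window is chr2:103411848-103412097 on the plus strand, both written 5′ to 3′ along the gene.
Elf3: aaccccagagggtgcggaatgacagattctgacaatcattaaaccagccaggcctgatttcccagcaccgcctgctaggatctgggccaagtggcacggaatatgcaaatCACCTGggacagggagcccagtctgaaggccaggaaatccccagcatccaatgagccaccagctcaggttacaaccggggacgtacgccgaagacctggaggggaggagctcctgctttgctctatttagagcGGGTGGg
Elf5: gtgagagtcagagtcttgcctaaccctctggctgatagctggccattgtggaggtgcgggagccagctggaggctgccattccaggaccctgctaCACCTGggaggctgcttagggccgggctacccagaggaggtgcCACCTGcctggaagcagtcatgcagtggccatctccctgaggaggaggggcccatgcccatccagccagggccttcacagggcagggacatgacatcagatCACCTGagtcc

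The Elf3 window held 1 E2-box, which began 140 bases before the start, and this Elf5 window held 3, at 155, 112 and 11 bases. At least 1 match to CACCTG occurred in 17.2% of the 32851 promoter windows, so a single match is common. The share of windows with 3 matches was not counted. A second Elf5 window and both Grhl1 windows held no E2-box, nor did that of Ovol2, which held 1 Ets site (19.7% of windows) beside a CACCC box (28.1%). No member window held AACCGGTT (0.116% of windows), AACNNGTT (3.64%) or CCGTTA (2.18%). These are matches of letters and not measured binding.

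Among the zinc finger factors, Ovol2, which represses Zeb1 in epithelia, had a log2 signal of 6.36 and 6.52 in the normal ductal arrays and 6.08, 5.97 and 6.19 in the PDAC arrays. The groups did not overlap, and the gap between them was 0.18. Ovol2 differed by -0.36 on the log2 scale (SE 0.09, adjusted p = 0.284). Ovol1, a factor of epidermal differentiation, had 5.52 and 5.12 against 4.97, 5.12 and 5.12. Here 3 arrays, normal ductal replicate 2 and PDAC replicates 2 and 3, carried the same deposited value, so the groups met. Ovol1 differed by -0.25 on the log2 scale (SE 0.14, adjusted p = 0.550), and without normal ductal replicate 1 it was -0.05. Equal values were common in the table, with at least 1 pair of arrays equal for 47.8% of genes.

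Klf5, which drives proliferation of epithelial progenitors, was at a similar level in 4 of the 5 arrays. It had 9.69 and 9.65 in the normal ductal arrays and 8.01, 9.65 and 9.75 in the PDAC arrays, so PDAC replicate 1 alone was low and the groups overlapped. Klf5 differed by -0.53 on the log2 scale (SE 0.64, 95% confidence interval -2.33 to 1.26, adjusted p = 0.711). Without PDAC replicate 1 it was 0.03 (SE 0.08), so that array alone carried the difference.

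Trp63 had 5.73 and 5.54 in the normal ductal arrays and 5.74, 5.58 and 5.73 in the PDAC arrays. Its range over the 5 arrays was 0.21, the smallest of the 9, and the groups overlapped. Trp63 differed by 0.05 on the log2 scale (SE 0.09, 95% confidence interval -0.21 to 0.31, adjusted p = 0.816), and without normal ductal replicate 2 it was -0.05. The single probe set does not separate the long and the truncated isoforms of p63. The basal keratins Krt5 and Krt14, which mark cells that depend on p63, also varied little over all arrays. Krt5 lay between 5.09 and 5.60 and Krt14 between 5.86 and 6.37. They do not stand for all p63 and basal epithelium genes, of which 8 of 16 were lower and 0 higher without overlap, where 12.8% of all genes were lower. Among these, Krt6a had 4.71 and 4.86 in the normal ductal arrays and 3.58, 4.37 and 4.39 in the PDAC arrays. These keratins were named after their values were seen.

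**Figure D2:**
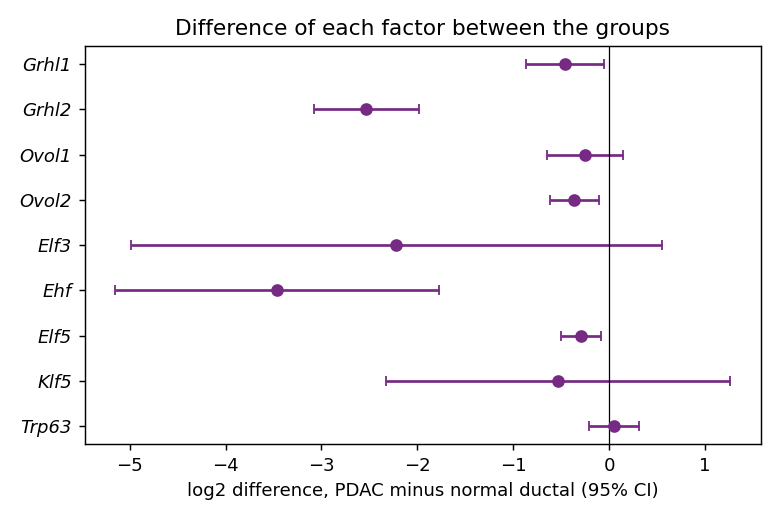
Log2 difference (PDAC minus normal ductal, horizontal axis) of each factor, with points at the limma estimate and bars for the 95% confidence interval (2 normal ductal and 3 PDAC arrays). The intervals of Grhl2 and Ehf lie far below 0, that of Elf3 runs from -4.99 to 0.55, and those of Klf5, Ovol1 and Trp63 span 0.

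Within families the differences were unequal in size. The log2 difference of Grhl2 lay below that of Grhl1 (by -2.07), that of Ehf lay below that of Elf5 (-3.17) and Elf3 (-1.24), and that of Elf3 lay below that of Elf5 (-1.93). In each of these 4 pairs the gap between the genes did not overlap between the groups, and the 2-sided exact permutation p was 0.2, the smallest that 2 arrays against 3 allow. The difference between Ovol1 and Ovol2 was 0.11 (exact permutation p = 0.8). With 5 pairs compared and no p able to pass 0.05, these values stand as a description. By mean signal Elf5 was among the lowest 25% of genes, and Grhl1, Grhl2, Ovol1 and Ovol2 were among the lowest 50%. The part of low signal in the unequal sizes was not tested.

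Most of the factors ranked the PDAC cultures alike. The signal was lowest in replicate 1, higher in replicate 2 and highest in replicate 3 for 6 of 9, in the values as deposited, where 13.4% of all genes had this order. The distance between these cultures differed by factor: replicate 3 lay above replicate 1 by 2.91 for Elf3, 1.73 for Klf5, 1.65 for Ehf, 0.49 for Grhl2 and 0.24 for Grhl1. Grhl2 thus stayed low in the culture in which Elf3 was nearly at the normal ductal level. All PDAC values of Grhl2 and Grhl1 lay below the array medians of 5.90 to 6.02. The part of low signal in these unequal distances was not tested. The mean over the 9 factors was 7.20 and 6.97 in the normal ductal arrays and 5.57, 5.95 and 6.40 in the PDAC arrays.

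**Figure D3:**
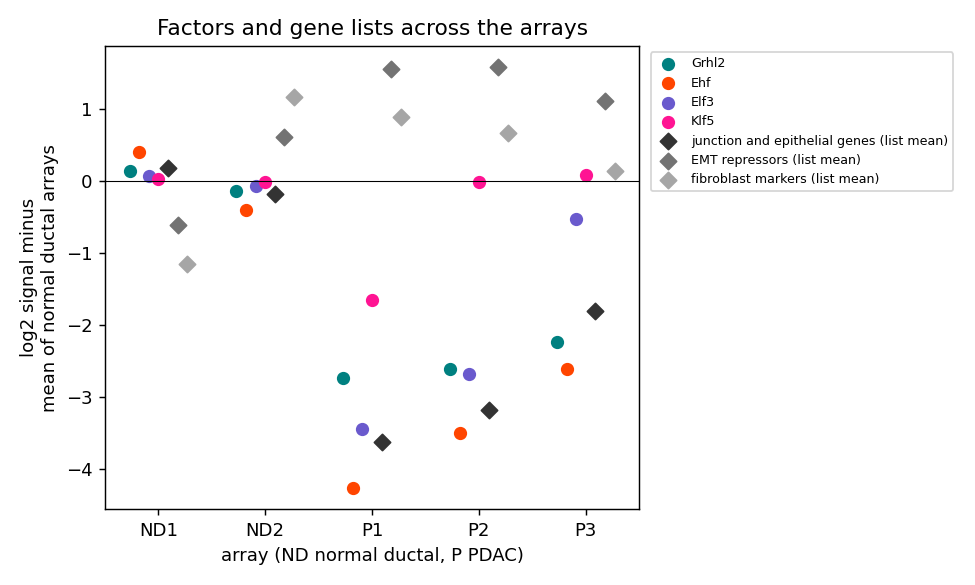
Log2 signal minus the mean of the normal ductal arrays (vertical axis) for Grhl2, Ehf, Elf3 and Klf5 (circles) and for the means of 3 gene lists (diamonds) in the 5 arrays, set side by side within each array. Elf3 and the junction list are nearer to 0 in P3 than in P1 and P2, Grhl2 is low in all 3, and fibroblast markers are higher in ND2 than in any PDAC array.

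Junction and epithelial genes, some of them known targets of Grhl2, had mostly lower values in the PDAC arrays. Of 34 measured, 23 were lower and 0 higher at an unadjusted p under 0.05, where 6.86% of all genes were lower. The other 11 did not pass it. Without overlap 29 were lower, where 12.8% of all genes were, and the median log2 difference was -3.27. Limma called 1 over all genes, the tricellular junction gene Ildr1, which fell by 3.94 on the log2 scale (SE 0.09, adjusted p = 0.0229). The call of Ildr1 ended without any 1 of the PDAC replicates. The mean over the list was 9.97 and 9.61 in the normal ductal arrays and 6.16, 6.61 and 7.98 in the PDAC arrays, lowest in replicate 1 and highest in replicate 3 like Elf3. E-cadherin (Cdh1), named after its values were seen, had the same order in the PDAC arrays, with 12.32 and 11.96 against 6.41, 8.33 and 10.76. It was among the 11 that did not pass (log2 difference -3.64, SE 1.43, adjusted p = 0.418 by limma). The count of 23 was 12 without normal ductal replicate 1 and 16 without normal ductal replicate 2, and the list was chosen with results of these arrays known.

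Genes linked to p63 and basal epithelium had 5 of 16 lower and 0 higher at an unadjusted p under 0.05. Of these 0 were called over all genes, and the median log2 difference of the list was -0.45. For this and the next 2 lists, the shares of all genes at that p were 6.86% lower and 6.5% higher. The 14-3-3 protein gene Sfn had -3.86 (SE 0.40, adjusted p = 0.148) and Lamb3 had -3.50 (SE 0.45, adjusted p = 0.165). Trp63 itself, with its low signal, differed by 0.05. Mucosal genes and known or candidate targets of Elf3 had 2 of 11 lower and 0 higher, with 0 called. These were the adhesion molecule Ceacam1 (-5.58, SE 0.72, adjusted p = 0.165) and the iron-binding lipocalin Lcn2 (-5.76, SE 1.12, adjusted p = 0.212). Lcn2 stood at 8.05 in PDAC replicate 3 and at 5.21 and 5.14 in replicates 1 and 2, against 11.52 and 12.27 in normal ductal cultures, and Ceacam1 was at 4.39 in replicate 3, its lowest value. Of 6 genes linked to Klf5, 2 were lower and 1 was higher, with 0 called, namely Egfr (-2.11, SE 0.51), Pdgfa (-0.33, SE 0.11) and, higher, the mitotic gene Birc5 (0.57, SE 0.16). These small counts moved with single arrays: the mucosal count of 2 was 4 without PDAC replicate 3 and 1 without normal ductal replicate 2. The count of 2 Klf5 genes was 0 without PDAC replicate 1 or normal ductal replicate 1 and 1 without normal ductal replicate 2, and Birc5 dropped out without PDAC replicate 3 or either normal ductal array.

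Relatives of the 9 in the same gene families, such as broadly expressed Elf1 and Tfcp2, had a median log2 difference of -0.02 over 15 genes. At an unadjusted p under 0.05 limma gave 2 lower and 1 higher, where 6.86% of all genes were lower and 6.5% higher. Limma called 0 of these relatives over all genes. Klf6, an early response factor, had -1.12 (SE 0.21, adjusted p = 0.208), the Ets factor Elf1 had -0.54 (SE 0.11, adjusted p = 0.218) and the grainyhead relative Tfcp2 had 0.55 (SE 0.13, adjusted p = 0.244). Tfcp2l1, a grainyhead relative of ductal epithelia named after its values were seen, had 7.88 and 7.25 in the normal ductal arrays and 5.22, 6.53 and 6.89 in the PDAC arrays, the same order of arrays as Ehf. Without normal ductal replicate 1 the lower relatives were 1, and the higher ones were 0 without normal ductal replicate 2 and 2 without PDAC replicate 3.

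Repressors of the epithelial state were higher in part. Of 9 measured, at an unadjusted p under 0.05, 4 were higher and 1 was lower, where 6.50% of all genes were higher, and limma called 0 over all genes. Snai2 had 6.56 and 7.44 in the normal ductal arrays and 10.09, 9.75 and 9.96 in the PDAC arrays (log2 difference 2.93, SE 0.31, adjusted p = 0.148), and Twist2 had 2.51 (SE 0.57, adjusted p = 0.243). Zeb1, the repressor opposed by Ovol2 and Grhl2, had 8.46 and 8.82 against 9.10, 9.20 and 9.22 (0.53, SE 0.14, adjusted p = 0.290). Snai3, the 1 that was lower, had -0.20 (SE 0.07) and dropped out when any array but PDAC replicate 1 was left out. The listed genes differed in their order over the PDAC arrays. Opposite to Elf3, values fell from replicate 1 to 3 for Snai1 (10.03, 9.65 and 9.01), Zeb2 (9.46, 8.97 and 7.67) and Tcf4 (10.13, 9.99 and 9.90). Zeb1 rose slightly, the order of Elf3. Snai2, Twist2, Prrx1 and Twist1 followed neither order, and Twist1 was lowest in replicate 3, at 7.11 against 8.64 and 9.01. Snai1, Zeb2, Tcf4, Prrx1 and Twist1 were named after their values were seen. As a list these repressors had a mean of 6.97 in normal ductal replicate 1 and 8.19 in replicate 2, against 9.13, 9.16 and 8.69 in the PDAC arrays, and the count of 4 was 2 without PDAC replicate 2 and 6 without normal ductal replicate 2.

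Markers of other cell types differed between the normal ductal arrays, and for some lists also between the groups. Lower in PDAC without overlap were 8 of 13 islet, 7 of 14 endothelial and 6 of 14 leukocyte markers, where 12.8% of all genes were. For acinar and fibroblast markers this was 1 of 12 and 0 of 15. Higher without overlap were 2 fibroblast and 1 acinar marker, and 0 of the other lists, where 13.6% of all genes were. At an unadjusted p under 0.05, 6.86% of all genes were lower and 6.5% higher. Fibroblast markers had a list mean of 7.93 in normal ductal replicate 1, 10.25 in replicate 2 and 9.97, 9.76 and 9.22 in the PDAC arrays, and replicate 2 of the normal ductal group exceeded replicate 1 by more than 1 for 13 of 15. At an unadjusted p under 0.05 limma gave 0 fibroblast markers higher and 0 lower, with Col3a1 at 2.03 (SE 0.95) and Pdgfra at 2.04 (95% confidence interval -0.75 to 4.84) nearest to it. Acinar markers had a list mean of 7.13 in normal ductal replicate 2 and between 5.20 and 5.34 in the other arrays (0 of 12 lower), with Cela1 at a log2 difference of 0.93 (SE 0.44) and Cpb1 at -0.92 (SE 0.53). Islet markers had 7.34 there, 5.73 in replicate 1 and 5.05 to 5.12 in the PDAC arrays (3 of 13 lower, with Nkx2-2 at -0.92, SE 0.14, and Gcg at -4.29, SE 0.95). Endothelial markers had 6.65, 5.72 and 5.33 to 5.39 (3 of 14 lower, with Mmrn2 at -0.15, SE 0.03, and Emcn at -3.72, SE 0.88), and leukocyte markers 5.84, 5.47 and 4.95 to 5.33 (1 of 14 lower, Cd14 at -2.78, SE 0.72). Without normal ductal replicate 1 the lower counts were 8 acinar, 13 islet, 10 endothelial and 5 leukocyte markers, and without normal ductal replicate 2 they were 0, 6, 4 and 4. Without normal ductal replicate 2, 3 fibroblast markers were higher. Between the normal ductal arrays Grhl2 differed by 0.28 and Ehf by 0.81, both lower in replicate 2. Of the 9 factors 1 was higher in replicate 2 than in replicate 1, where 30.8% of all genes were. The median of this difference was -0.20 over the 9 and -0.05 over all genes. Without normal ductal replicate 2 the log2 difference was -2.67 for Grhl2 and -3.86 for Ehf. The part of fibroblast and other cells in the differences between the groups and among the PDAC cultures was not tested.

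Duct markers, of which 13 were measured, are given because the title of normal ductal replicate 2 leaves out the word ductal. Their mean was 8.26 and 8.19 in the normal ductal arrays and 6.26, 7.31 and 8.21 in the PDAC arrays. PDAC replicate 3 thus lay between the normal ductal arrays, so this mean cannot decide where a culture came from. The duct origin of normal ductal replicate 2 was not tested. Sox9, the ductal and progenitor factor, had 10.93 and 10.20 in the normal ductal arrays and 9.41, 10.39 and 10.39 in the PDAC arrays. The duct keratin Krt19 was at 6.47 in PDAC replicate 1 and between 9.50 and 11.74 in the other arrays. At an unadjusted p under 0.05, 2 of 13 duct markers were lower, where 6.86% of all genes were, namely Slc4a4 (-1.86, SE 0.31) and Onecut1 (-0.60, SE 0.14). Higher was 1, Aqp5 (1.03, SE 0.28), where 6.5% of all genes were, and 0 duct markers were called over all genes. The 2 lower duct markers became 5 after quantile normalization, 5 with a common array median, 4 without the lowest 25% of genes and 6 with the replicate block. Without PDAC replicate 3 they became 8, and without PDAC replicate 1 there was 1. Without PDAC replicate 3 or either normal ductal array the count of higher ones was 0, and without PDAC replicate 2 it was 2. PDAC replicate 1, lowest in Elf3, Ehf, Grhl2 and Klf5, was also lowest in the duct list.

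**Figure D4:**
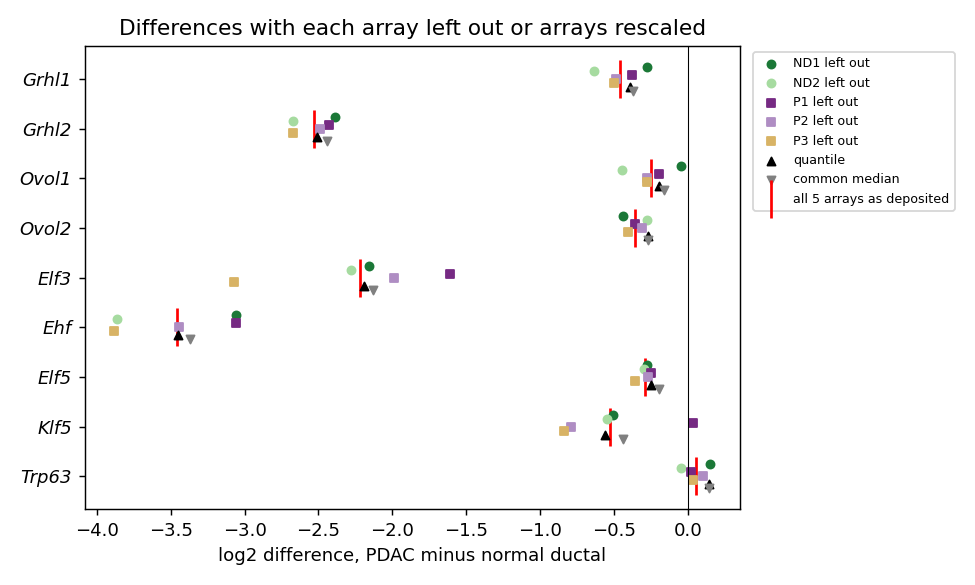
Log2 difference (PDAC minus normal ductal, horizontal axis) of each factor with all 5 arrays as deposited (red bars), with 1 array left out (circles and squares) and with arrays rescaled (triangles). Grhl2 stays between -2.67 and -2.39, Elf3 moves between -3.07 and -1.61, and Klf5 reaches 0.03 when P1 is left out.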

How the data were processed

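The authors deposited log2 signals for 35556 probe sets on 5 arrays. The submitters' processing notes name Transcriptome Analysis Console 1.0.0.234 and the mm10 build. How background and arrays were corrected, and which base the logarithm has, is not given in the sources used here; log2 was read from the values (0.727 to 13.9, array medians 5.90 to 6.02). Probe sets with 1 gene symbol in the platform annotation (21789) gave 19938 genes, using the probe set with the highest mean. Those with several symbols (1621) or no symbol (12146) were not used.

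The groups were compared gene by gene in R 4.3.3 with limma 3.58.1 (lmFit, eBayes with an intensity trend, two-sided), Benjamini-Hochberg adjusted p-values covered all genes, and those under 0.05 counted as called. Simulated data (19938 genes, 20 runs) had independent normal noise at each gene's own SD and changes in 200 randomly picked genes. Of genes changed by a log2 of 1, 2 and 4, 36.2%, 63.5% and 86.7% were called, and 5.35% of calls were false. The picks could include the 721 genes with the same value in all arrays, which have no spread. These shares do not give the power for the deposited arrays. There 291 genes were lower by more than 2 on the log2 scale, and limma called 11 genes in either direction. The number of arrays limits the precision.

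Named were all 9 members, the called or else the smallest-p genes of each list (2 in each direction), and for members ranging over more than 2 the 3 nearest profiles. Others were named after their values were seen. The members and lists were chosen with earlier results of these data known. Figures used Python 3.11.15 and matplotlib 3.10.9.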

Additional observations from a re-analysis of the deposited data

How the results depend on the processing

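Where the gene was tested, every alternative kept the log2 difference below 0 for Grhl2 (-2.67 to -2.39), Ehf (-3.88 to -3.06), Elf3 (-3.07 to -1.61), Grhl1, Ovol1, Ovol2 and Elf5. That of Klf5 turned without PDAC replicate 1 (-0.84 to 0.03 with each culture left out), and that of Trp63 without normal ductal replicate 2 (-0.05 to 0.15). The difference of Cat was -0.35 to 0.40 with each culture left out (-0.35, -0.12 and -0.02 without normal ductal replicate 2, PDAC replicate 2 and PDAC replicate 3).

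Limma called 11 genes as deposited, 42 after quantile normalization, 80 with a common array median, 42 without the lowest 50% of genes, 3 with array weights and 0 to 1287 with each culture left out. The 1287 and 990 calls without normal ductal replicate 1 and 2 rest on the spread of the PDAC arrays alone, since 1 normal ductal array was left. Of the 9 factors, 1 (Grhl2) was called after quantile normalization and 1 (Grhl2) with a common array median, which moved the median of all genes from 0.01 to 0.10. With each culture left out, 3 to 5 factors were lower at an unadjusted p under 0.05. The filter on the lowest 25% of genes removed Elf5, and that on the lowest 50% also removed Grhl1, Grhl2, Ovol1, Ovol2 and Trp63. It left 1 factor (Ehf) lower at an unadjusted p under 0.05 and 2 lower without overlap, with a median of -2.22, because fewer factors were tested.

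Deviations from the group means in same-numbered cultures had correlations of -0.18 and -0.04. With 2 normal ductal arrays these deviations mirror each other, so the values cannot decide whether same-numbered cultures were paired. With the replicate block, limma called 0 genes, and Cat had -0.02. The block removes PDAC replicate 3, which has no partner, so its differences equal those without that array.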
